A study of Mus musculus with 6 samples.

Results

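The genes described here encode the channels, exchangers, cotransporters and pumps with which an epithelium moves salt and bicarbonate, together with proteins that control them. They were chosen by name from the annotation of the array, by a rule that uses no values but was set with earlier results of these data known. The rule names the Slc4a, Slc9a, Slc12a and Slc26a transporters, the Scnn1 subunits of the epithelial sodium channel (ENaC), the alpha and beta subunits of the Na,K-ATPase (Atp1a and Atp1b), the FXYD proteins, the carbonic anhydrases (Car), and Cftr, Sgk1, Nedd4l, Prss8, St14 and Ano1. The rule took 69 of the 18193 genes that had a probe set naming that gene alone. Each gene is given by its brightest probe set, the one with the highest mean over the 6 arrays.

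Uteri of Arid1a d/d and Arid1a f/f mice were compared, on 3 arrays per genotype, at 3.5 days post coitum (dpc), shortly before a mouse embryo attaches, to ask which genes depend on ARID1A, a DNA-binding subunit of the SWI/SNF chromatin remodelling complex. In Arid1a d/d mice (Pgr cre/+ Arid1a f/f), Cre recombinase made from the progesterone receptor locus deletes the floxed Arid1a alleles in cells that express the progesterone receptor, which include the uterine epithelium, stroma and muscle. Arid1a f/f mice carry the same floxed alleles without Cre, so the genotypes also differ at the Pgr locus and there was no group with Cre alone. The females had been mated and were collected intact, their ages at collection are not given in the sources used here, and no label says that each array holds a separate mouse, so that p-values measure only the spread between these samples, which may be technical.

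The fluid in the uterine lumen is set by the luminal and glandular epithelium. ENaC in the apical membrane takes up sodium, and water follows, while CFTR lets chloride and bicarbonate out, and the Na,K-ATPase in the basolateral membrane keeps the sodium gradient on which both directions depend. In rodents, estrogen favours secretion and progesterone favours absorption, and much of the fluid is taken up before the embryo attaches.

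Values are linear array intensities after the authors' RMA summary and scaling, on which the median over all probe sets was 3.12. A gene was called when limma's adjusted p was under 0.05, and a log2 fold change is Arid1a d/d minus Arid1a f/f. The targeted gene Arid1a had intensities of 51.9, 51.9 and 58.2 in Arid1a d/d uteri, against 83.6, 86.9 and 104 in Arid1a f/f uteri (log2 fold change −0.76, SE 0.12, adjusted p = 0.012), and whether its probes lie in the deleted part was not stated. Markers of other cell types moved with genotype: 11 of 12 endothelial markers were called lower, with summed intensities of 253 to 306 in Arid1a d/d uteri and 579 to 606 in Arid1a f/f uteri, 3 of 12 stromal fibroblast markers and 2 of 11 leukocyte markers were called lower, and 2 of 13 epithelial markers (Cdh1 and Wnt7a) were called higher. The summed epithelial markers reached 1247, 2502 and 1682 in the Arid1a d/d arrays in the order of their replicate numbers, against 1178 to 1262 in Arid1a f/f arrays, so that Arid1a d/d replicate 2 stood highest. Of the other lists, 4 of 8 proliferation markers were called higher and 1 of 12 smooth muscle markers lower, and most markers of red cells (4 of 5) and of nerve and glia (6 of 7) were below the median of the table in both genotypes. These are whole uteri, in which fewer cells of a type and less RNA per cell cannot be told apart, and the part of these shifts in the results that follow was not tested.

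Of the 69 genes, 3 were called higher in Arid1a d/d uteri (4.35%, against 3.37% of all genes) and 6 were called lower (8.70%, against 4.06% of all genes). Sgk1, Prss8 and Scnn1b, all of the ENaC system, were higher. Atp1b2, Fxyd6 and Fxyd5, which are partners of the Na,K-ATPase, were lower, as were the potassium-chloride cotransporter Slc12a7 and the carbonic anhydrases Car4 and Car11. The other 60 genes were not called. At an unadjusted p under 0.05, limma passed 9 genes as higher (13.0%, against 11.4% of all genes) and 15 as lower (21.7%, against 13.5% of all genes). The median log2 fold change over the 69 genes was −0.05, against −0.02 over all genes. All 3 Arid1a d/d arrays lay above all 3 Arid1a f/f arrays for 10 genes (14.5%, against 13.4% of all genes) and below them for 15 (21.7%, against 16.0% of all genes). In 25 genes both genotype means were below the median of the table. None of these 25 was called, and their log2 fold changes lay between −0.39 and 0.19. They lie near the dim end of this array, and changes in them could have been missed.

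**Figure D1:**
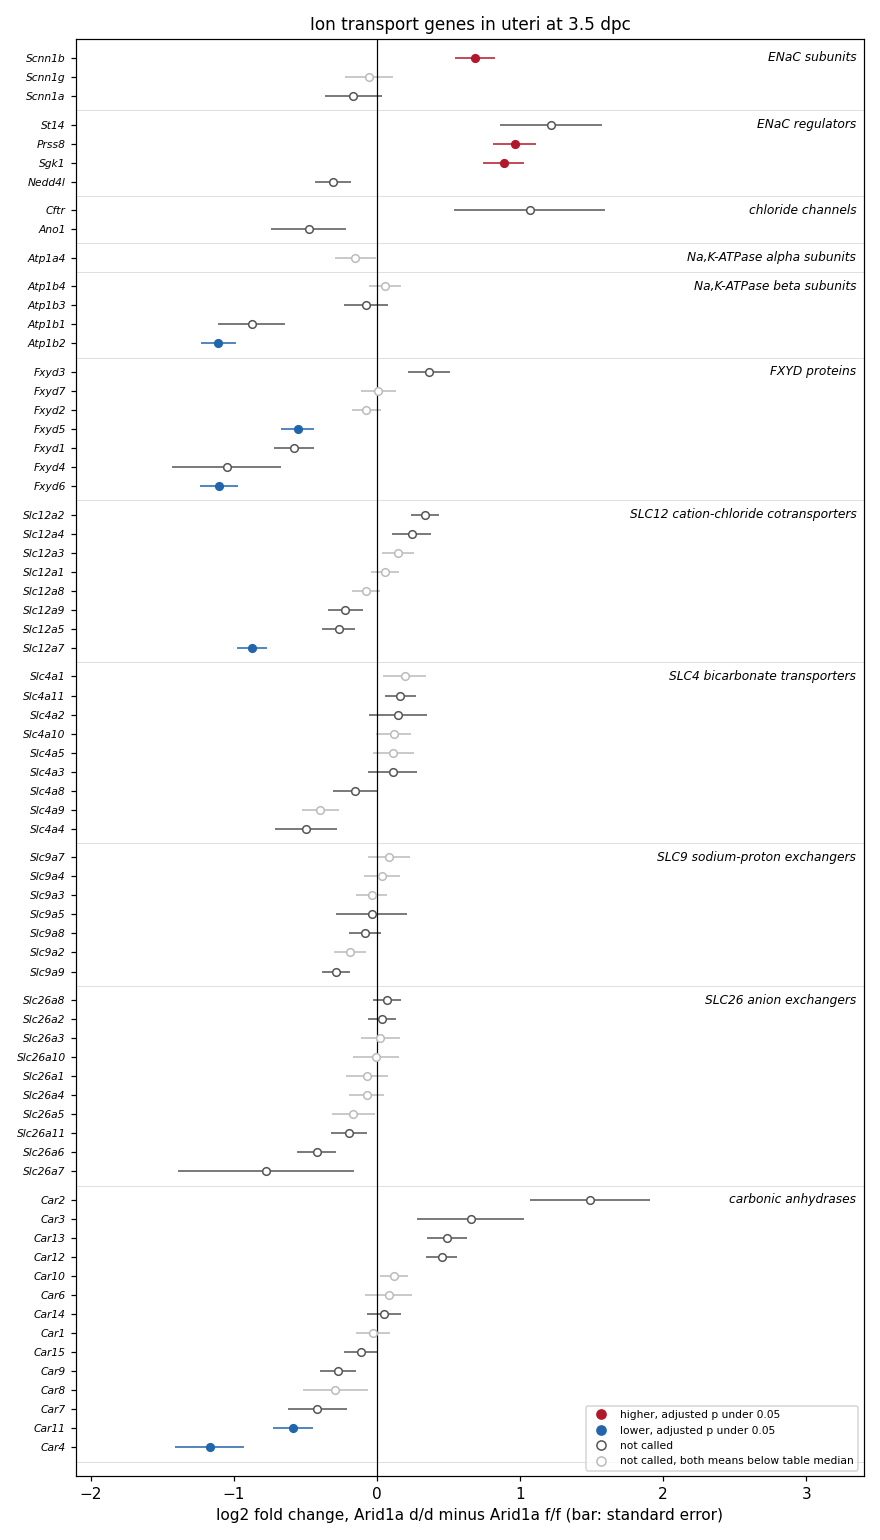
Log2 fold change of each of the 69 genes (horizontal axis, Arid1a d/d minus Arid1a f/f, bars give the standard error of the limma fit), grouped by role. The 3 genes called higher are all in the ENaC groups, and the 6 called lower lie among the Na,K-ATPase beta subunits, the FXYD proteins, the SLC12 cotransporters and the carbonic anhydrases.

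The start regions of 4 called genes are shown first, because these genes lie in the groups with the called changes and can be compared for hormone response elements and GC boxes. The sequences are from RefSeq on GRCm38.p6, run 5′ to 3′ on the strand of the gene, and cover 250 bases before to 50 bases after an annotated start. Such windows were at hand for 48 of the 69 genes and for 7 of the 9 called genes, all but Prss8 and Atp1b2. Capitals mark matches, on either strand, to AGAACA and TGTTCT with any 3 bases between them, the palindrome that glucocorticoid and progesterone receptors can bind, to GGTCA and TGACC with any 3 bases between them, the estrogen response element, or to GGGCGG, the GC box (CCGCCC where it lies on the other strand). None of the matches printed overlaps another.
Sgk1 at chr10:21993640-21993939, plus strand: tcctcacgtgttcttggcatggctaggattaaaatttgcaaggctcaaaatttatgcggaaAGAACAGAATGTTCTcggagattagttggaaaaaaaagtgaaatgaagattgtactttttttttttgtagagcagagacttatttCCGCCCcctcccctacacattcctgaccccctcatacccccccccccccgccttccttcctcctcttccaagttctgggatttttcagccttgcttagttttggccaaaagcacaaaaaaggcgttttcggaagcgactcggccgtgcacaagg
Sgk1 at chr10:21994416-21994715, plus strand: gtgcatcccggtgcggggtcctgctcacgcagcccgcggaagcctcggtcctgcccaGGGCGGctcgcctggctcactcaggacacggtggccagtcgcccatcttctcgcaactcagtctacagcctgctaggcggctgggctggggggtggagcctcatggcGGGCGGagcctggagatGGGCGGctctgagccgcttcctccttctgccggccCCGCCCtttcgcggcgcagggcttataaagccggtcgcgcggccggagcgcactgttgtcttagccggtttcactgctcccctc
Scnn1b at chr7:121864788-121865087, plus strand: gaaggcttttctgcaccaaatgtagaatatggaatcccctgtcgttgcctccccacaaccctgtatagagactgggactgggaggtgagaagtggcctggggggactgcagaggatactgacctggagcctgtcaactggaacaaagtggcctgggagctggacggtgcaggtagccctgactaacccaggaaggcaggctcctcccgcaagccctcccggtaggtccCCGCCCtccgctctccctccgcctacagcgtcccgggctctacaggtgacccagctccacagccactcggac
Slc12a7 at chr13:73763410-73763709, plus strand: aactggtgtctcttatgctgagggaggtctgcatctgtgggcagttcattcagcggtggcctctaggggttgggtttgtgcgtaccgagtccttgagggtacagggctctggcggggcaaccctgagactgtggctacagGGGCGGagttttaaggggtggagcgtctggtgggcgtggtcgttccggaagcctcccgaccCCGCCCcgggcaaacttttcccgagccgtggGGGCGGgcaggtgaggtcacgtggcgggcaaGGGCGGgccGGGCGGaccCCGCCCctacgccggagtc
Fxyd6 at chr9:45369935-45370234, plus strand: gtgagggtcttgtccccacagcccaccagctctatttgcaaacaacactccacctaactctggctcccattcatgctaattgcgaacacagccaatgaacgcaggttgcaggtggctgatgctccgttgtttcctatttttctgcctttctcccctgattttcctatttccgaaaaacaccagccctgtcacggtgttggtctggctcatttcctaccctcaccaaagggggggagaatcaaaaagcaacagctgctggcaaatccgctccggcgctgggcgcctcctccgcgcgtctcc

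Sgk1 has 6 annotated start windows, and the 2 that hold a GC box are printed. The first holds the full palindrome, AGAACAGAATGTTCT, beginning 189 bases before that start, and 1 GC box. The second has no palindrome but 4 GC boxes, with 69.7% G and C. Across all 32851 windows of the RefSeq table, the palindrome was found in 3 (0.00913%), and the Sgk1 window was the only one among the 66 windows of the ion transport genes. The Scnn1b window holds 1 GC box, the Slc12a7 window (the first of 2) 6, and the Fxyd6 window none. GC boxes were present in 33 of the 66 windows (50%), against 35.7% of all windows, and the estrogen response element was in none of the 66 and in 23 of all windows (0.0700%). These matches are letters in a window and no measure of binding.

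Among the 3 ENaC subunits, the beta subunit rose and the other 2 were not called. Scnn1b had 13.1, 10.2 and 14.5 in Arid1a d/d uteri, against 8.08, 7.35 and 7.84 in Arid1a f/f uteri (1.61-fold higher, log2 fold change 0.68, SE 0.14, adjusted p = 0.0289). The groups did not overlap, and the Arid1a d/d arrays were more spread. The alpha subunit, Scnn1a, without which the channel of the mouse conducts poorly, had 3.56, 4.20 and 6.31 in Arid1a d/d uteri, against 4.98, 5.79 and 4.60 in Arid1a f/f uteri (log2 fold change −0.16, adjusted p = 0.751). Its highest value and its 2 lowest were all in Arid1a d/d arrays. The gamma subunit, Scnn1g, was dim in both genotypes, with 2.09, 2.75 and 2.40 in Arid1a d/d uteri and 1.98, 3.00 and 2.60 in Arid1a f/f uteri (log2 fold change −0.05, adjusted p = 0.917). Scnn1g and Scnn1b are next to each other on chromosome 7. Scnn1b was called in 1 of the 6 fits that each left out 1 array, the one without Arid1a d/d replicate 2, and its log2 fold change lay between 0.57 and 0.83 over these fits.

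Of the 4 genes that control ENaC, 2 rose. Sgk1, a kinase induced by steroid hormones that keeps ENaC at the cell surface, had 103, 77.4 and 113 in Arid1a d/d uteri, against 53.0, 54.2 and 49.4 in Arid1a f/f uteri (1.85-fold higher, log2 fold change 0.89, SE 0.14, adjusted p = 0.0139). Even the lowest Arid1a d/d array was well above the highest Arid1a f/f array. Prss8, the membrane-anchored protease prostasin, which cleaves and so activates ENaC, had 22.7, 28.8 and 31.1 in Arid1a d/d uteri, against 14.9, 15.5 and 11.9 in Arid1a f/f uteri (1.95-fold higher, log2 fold change 0.96, SE 0.15, adjusted p = 0.0126). Prss8 was called in all 6 fits that left out 1 array, with log2 fold changes of 0.84 to 1.09. Sgk1 was called in 4 of them and not without Arid1a f/f replicate 2 or replicate 3.

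St14, the protease matriptase, which activates prostasin, was not called. Its intensities were 27.5, 85.3 and 36.2 in Arid1a d/d uteri, against 20.7, 21.0 and 15.6 in Arid1a f/f uteri (log2 fold change 1.22, SE 0.36, adjusted p = 0.0990). The groups did not overlap, but Arid1a d/d replicate 2 was at least 1.5-fold above both other Arid1a d/d arrays. The log2 fold change was 0.74 without that array (adjusted p = 0.0834), and among the fits that left out 1 array St14 was called in the one without Arid1a d/d replicate 1 (1.55). Nedd4l, the ubiquitin ligase that removes ENaC from the membrane and that SGK1 inhibits, had 41.7, 34.4 and 42.8 in Arid1a d/d uteri, against 47.0, 54.3 and 45.4 in Arid1a f/f uteri (log2 fold change −0.31, SE 0.12, adjusted p = 0.223). All 3 Arid1a d/d arrays were lower than the Arid1a f/f arrays, by a small margin. Nedd4l has several probe sets, and a dimmer one passed with a log2 fold change of −0.81 (adjusted p = 0.0213) while another was at −0.00.

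Among 14 other genes of the ENaC and aldosterone route (receptors, kinases, proteases and their inhibitors), 1 was higher and 1 was lower, with a median log2 fold change of −0.08. Of all genes, 3.37% were called higher and 4.06% lower. Tmprss4, a membrane serine protease that can also activate ENaC, had 12.5, 35.9 and 11.9 in Arid1a d/d uteri, against 4.34, 4.58 and 4.62 in Arid1a f/f uteri (log2 fold change 1.95, SE 0.36, adjusted p = 0.0223). Arid1a d/d replicate 2 was again the highest, and the call was lost in each fit without an Arid1a f/f array. Sgk3, a kinase related to SGK1, moved the other way, with 23.8, 21.4 and 22.8 in Arid1a d/d uteri and 37.3, 35.0 and 39.5 in Arid1a f/f uteri (log2 fold change −0.72, SE 0.10, adjusted p = 0.00842). It was called in all 6 fits that left out 1 array and was lost when the probe sets of the gene were averaged.

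**Figure D2:**
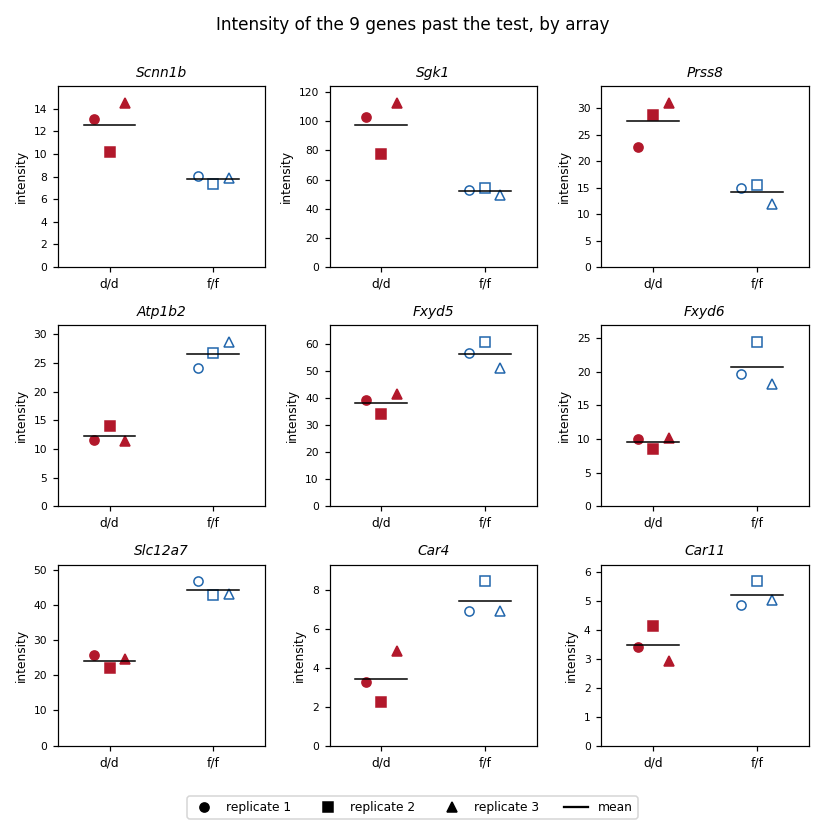
Intensity (vertical axis, linear, from 0) of the 9 called genes in each array, Arid1a d/d left and Arid1a f/f right, with symbols for replicates and a line for the mean. No gene has overlapping groups. Prss8, Atp1b2, Fxyd6 and Slc12a7 stayed called whichever array was left out.

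Neither chloride channel was called by limma, at an unadjusted p under 0.05 included, nor by the methods' t-test. The methods name that test for data with 2 groups in general, and for the arrays they give fold filters and no test. Its use on the arrays, and the adjustment of its p-values, were added here. Cftr, the cAMP-driven channel for chloride and bicarbonate, had 2.91, 14.5 and 3.21 in Arid1a d/d uteri, against 2.89, 2.57 and 1.98 in Arid1a f/f uteri (log2 fold change 1.07, SE 0.53, adjusted p = 0.333). Arid1a d/d replicate 2 alone stood out, the other Arid1a d/d arrays were barely above the Arid1a f/f arrays, and the log2 fold change was 0.32 without it. Ano1, the calcium-activated chloride channel, which is also found in smooth muscle, had 180, 75.6 and 123 in Arid1a d/d uteri, against 177, 158 and 162 in Arid1a f/f uteri (log2 fold change −0.48, SE 0.26, adjusted p = 0.394). Here the same array was the lowest of the 6, and the log2 fold change was −0.15 without it. Among 13 other chloride channel genes none was called by limma (median log2 fold change −0.15), and 3 had an unadjusted p under 0.05, all lower (13.5% of all genes passed as lower at that threshold). The one with the smallest p, Clcn5, an endosomal chloride-proton exchanger, had 90.3, 100.1 and 108 in Arid1a d/d uteri, against 150.0, 129 and 206 in Arid1a f/f uteri (log2 fold change −0.68, SE 0.17, adjusted p = 0.0597). Clcn5 was called lower by limma in 4 of the alternative fits to all 6 arrays. It was not called as the mean of its probe sets (log2 fold change −0.37, limma adjusted p = 0.157) or with 4 added before log2 (limma adjusted p = 0.0991). Of the 6 fits that left out 1 array, 0 called it.

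The Na,K-ATPase consists of a catalytic alpha subunit, a beta subunit needed to bring it to the membrane, and often an FXYD protein that tunes its kinetics. Of the 4 beta subunit genes, 1 fell. Atp1b2 had 11.5, 14.1 and 11.4 in Arid1a d/d uteri, against 24.1, 26.8 and 28.7 in Arid1a f/f uteri (2.15-fold lower, log2 fold change −1.11, SE 0.12, adjusted p = 0.00347). The highest Arid1a d/d array lay far below the lowest Arid1a f/f array, and the call held in all 6 fits that left out 1 array (−1.21 to −1.05). Atp1b1, the beta subunit usual in epithelia, had 153, 137 and 263 in Arid1a d/d uteri, against 379, 268 and 336 in Arid1a f/f uteri (log2 fold change −0.88, SE 0.24, adjusted p = 0.0773). Arid1a d/d replicate 3 came close to the lowest Arid1a f/f array. Without it Atp1b1 was called (−1.16, adjusted p = 0.0172). Its second brightest probe set was itself called, at −0.82 (adjusted p = 0.0473), a further pair was at −0.67 and −0.66, and the dimmest was at 0.08. Atp1b3, found in many cell types, had 402, 259 and 313 in Arid1a d/d uteri, against 334, 342 and 334 in Arid1a f/f uteri (log2 fold change −0.08, SE 0.15, adjusted p = 0.865). The Arid1a d/d arrays lay on both sides of the Arid1a f/f arrays. Atp1b4 and the alpha subunit gene Atp1a4 were below the median of the table in both genotypes, with log2 fold changes of 0.05 and −0.15.

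The 7 FXYD genes had a median log2 fold change of −0.55, and 2 of them were called, both lower. Fxyd6, which in the rodent brain and inner ear accompanies the pump, had 10.1, 8.54 and 10.2 in Arid1a d/d uteri, against 19.6, 24.4 and 18.2 in Arid1a f/f uteri (2.15-fold lower, log2 fold change −1.10, SE 0.14, adjusted p = 0.00521). Fxyd6 was called in all 6 fits that left out 1 array. Fxyd5, also called dysadherin, had 39.3, 34.3 and 41.5 in Arid1a d/d uteri, against 56.7, 60.8 and 51.2 in Arid1a f/f uteri (1.47-fold lower, log2 fold change −0.55, SE 0.11, adjusted p = 0.0320). Its groups did not overlap, but the call was lost in each of the 6 fits that left out an array, where the log2 fold change lay between −0.62 and −0.47.

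The 2 brightest FXYD genes were not called. Fxyd4, a corticosteroid-induced partner of the pump known from kidney and colon, had 213, 135 and 465 in Arid1a d/d uteri, against 610, 408 and 476 in Arid1a f/f uteri (log2 fold change −1.05, SE 0.38, adjusted p = 0.178). Arid1a d/d replicate 3 lay inside the range of the Arid1a f/f arrays, and without it Fxyd4 was called (−1.53, adjusted p = 0.0215). Fxyd3, which is expressed in epithelia, had 162, 163 and 208 in Arid1a d/d uteri, against 116, 144 and 154 in Arid1a f/f uteri (log2 fold change 0.36, SE 0.15, adjusted p = 0.226). Fxyd1, phospholemman of muscle, which is named after its values were seen, had 116, 80.5 and 87.8 in Arid1a d/d uteri and 142, 138 and 141 in Arid1a f/f uteri (log2 fold change −0.58, SE 0.14, adjusted p = 0.0528). The groups of Fxyd1 did not overlap, and it was called lower in 4 of the alternative fits to all 6 arrays. Fxyd2 and Fxyd7 were dim in both genotypes. Fxyd5, Fxyd7 and Fxyd1 follow each other on chromosome 7, and Fxyd6 and Fxyd2 on chromosome 9. The lower values of Fxyd5, Fxyd6 and Atp1b2 stand beside the lower summed markers of endothelium given above, and of stromal fibroblasts, at 8861 to 10487 in Arid1a d/d uteri and 11775 to 12876 in Arid1a f/f uteri. Of the 12 fibroblast markers 3 were called lower, and the 2 brightest in that sum, Col3a1 and Col1a2, were not called. The part of these cell types in the values of Fxyd5, Fxyd6 and Atp1b2 was not tested.

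Of the 8 SLC12 genes, 1 was called, and the median log2 fold change was −0.01. Slc12a7, which carries potassium and chloride out of cells, had 25.9, 22.0 and 24.7 in Arid1a d/d uteri, against 46.9, 42.9 and 43.2 in Arid1a f/f uteri (1.83-fold lower, log2 fold change −0.87, SE 0.10, adjusted p = 0.00468). The replicates of each genotype lay close together, and the call held in all 6 fits that left out 1 array. Slc12a2, the sodium-potassium-chloride cotransporter that loads secretory cells with chloride, had 281, 288 and 311 in Arid1a d/d uteri, against 233, 218 and 247 in Arid1a f/f uteri (log2 fold change 0.33, SE 0.10, adjusted p = 0.104). Its groups did not overlap, and its dimmer probe sets gave larger values, at 1.15 (adjusted p = 0.0408) and 0.78 (adjusted p = 0.112). The call for Slc12a2 depended on which probe set stood for the gene, and the brightest one was itself called with limma's trend and robust options (adjusted p = 0.0435) and with 4 added before log2 (adjusted p = 0.0465). Among the 8 measured genes of the WNK and SPAK kinase route, which switches these cotransporters, none was called by limma (median log2 fold change −0.12). The smallest p was that of Stk39, which encodes SPAK, with 7.83, 7.99 and 9.18 in Arid1a d/d uteri and 10.3, 9.50 and 11.2 in Arid1a f/f uteri (log2 fold change −0.31, SE 0.11, adjusted p = 0.172).

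**Figure D3:**
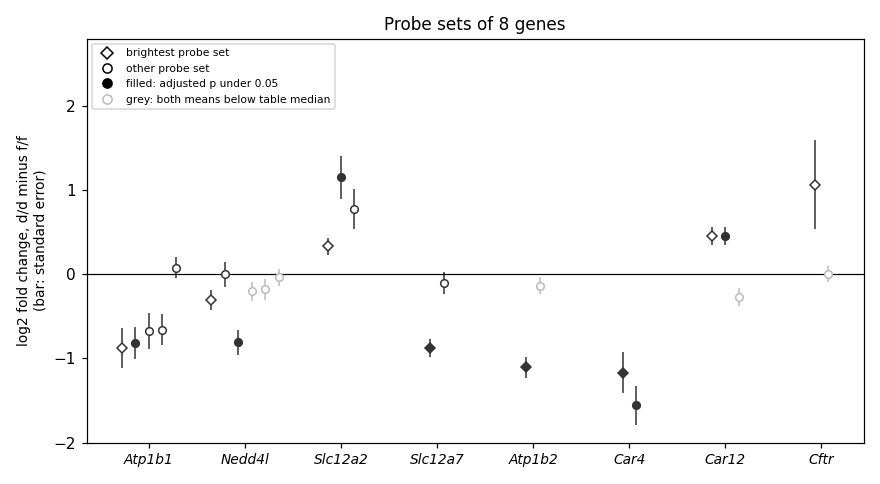
Log2 fold change (vertical axis, Arid1a d/d minus Arid1a f/f, bars give the standard error) of every probe set of 8 genes, the brightest drawn as a diamond. For Atp1b1, Nedd4l, Slc12a2 and Car12 a dimmer probe set passed the test while the brightest did not, and for Car4 both passed.

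The 69 genes had 133 probe sets in all, and 34 genes had more than 1. Of the 3 other probe sets of called genes, 1 passed in the same direction, that of Car4, and 1, that of Atp1b2, was dim in both genotypes. The third, of Slc12a7, was at −0.11. Of the 61 other probe sets of genes that were not called, 2 passed as higher and 2 as lower.

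None of the 26 exchangers of the SLC4, SLC9 and SLC26 families was called by limma or by the methods' t-test. At an unadjusted p under 0.05, limma passed Slc4a4, Slc4a9, Slc9a9 and Slc26a6, all lower, and the methods' t-test passed Slc4a9 and Slc9a9. Over all genes, limma passed 13.5% as lower at that threshold. Many of the 26 exchangers, Slc4a9 among them, were dim in both genotypes, with 4 of 9 SLC4, 4 of 7 SLC9 and 5 of 10 SLC26 genes below the median of the table. Slc4a2, which exchanges chloride for bicarbonate, had 22.4, 29.8 and 42.2 in Arid1a d/d uteri, against 26.8, 29.2 and 26.6 in Arid1a f/f uteri (log2 fold change 0.15, SE 0.20, adjusted p = 0.787). Slc4a4, which brings sodium and bicarbonate into secretory cells, had 21.9, 11.6 and 17.0 in Arid1a d/d uteri, against 26.3, 19.9 and 23.0 in Arid1a f/f uteri (log2 fold change −0.49, SE 0.22, adjusted p = 0.266). The Arid1a d/d arrays lay on both sides of the Arid1a f/f arrays for Slc4a2, and 1 of them lay within the Arid1a f/f range for Slc4a4.

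Among the sodium-proton exchangers, Slc9a9, found in endosomes, had 4.11, 4.19 and 4.22 in Arid1a d/d uteri, against 5.44, 4.70 and 5.16 in Arid1a f/f uteri (log2 fold change −0.29, SE 0.10, adjusted p = 0.152). Slc9a5 had 3.61, 3.95 and 6.80 in Arid1a d/d uteri, against 5.82, 3.76 and 4.79 in Arid1a f/f uteri (log2 fold change −0.04, SE 0.25, adjusted p = 0.965). The groups were separate for Slc9a9 and mixed for Slc9a5. Among the SLC26 anion exchangers, Slc26a7, a chloride and bicarbonate transporter, varied most, with 26.2, 53.5 and 30.8 in Arid1a d/d uteri and 20.5, 152 and 69.2 in Arid1a f/f uteri (log2 fold change −0.77, SE 0.61, adjusted p = 0.586). Its 3 Arid1a f/f arrays were further apart than the genotype means, and the log2 fold change was −0.10 with Arid1a f/f replicate 2 left out and −1.55 with replicate 1 of that genotype left out, called in neither fit. Slc26a2, a sulfate transporter, averaged 16.5 ± 1.14 in Arid1a d/d uteri and 16.1 ± 0.561 in Arid1a f/f uteri (SD, n = 3 each, log2 fold change 0.04, limma adjusted p = 0.906). Slc26a6, another chloride-bicarbonate exchanger, named after its values were seen, averaged 7.52 ± 0.0751 in Arid1a d/d uteri and 10.2 ± 1.76 in Arid1a f/f uteri (SD, n = 3 each, log2 fold change −0.42, limma adjusted p = 0.130).

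Carbonic anhydrases supply the exchangers with bicarbonate and protons. Of the 14 genes, 2 were called, both lower, and the median log2 fold change was 0.01. Car4, an enzyme anchored on the outer face of the membrane and known from capillary endothelium as well as epithelia, had 3.25, 2.25 and 4.84 in Arid1a d/d uteri, against 6.90, 8.46 and 6.90 in Arid1a f/f uteri (2.25-fold lower, log2 fold change −1.17, SE 0.24, adjusted p = 0.0317). The other probe set of Car4 had 2.62, 2.23 and 2.90 in Arid1a d/d uteri and 5.0, 9.21 and 9.33 in Arid1a f/f uteri (log2 fold change −1.55, adjusted p = 0.0109). Both probe sets had groups that did not overlap, at low intensities, and that of the brightest was called in 1 of the 6 fits that left out an array, the one without Arid1a d/d replicate 3. Car11, a related protein without enzyme activity, had 3.4, 4.15 and 2.94 in Arid1a d/d uteri, against 4.88, 5.70 and 5.06 in Arid1a f/f uteri (1.5-fold lower, log2 fold change −0.59, SE 0.14, adjusted p = 0.0499). This call sat at the threshold and was kept in 1 of the 6 fits, the one without Arid1a d/d replicate 2. Car4 stands beside the lower endothelial markers given above, whose part in it was not tested.

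Car2, the fast cytosolic enzyme, had the highest log2 fold change of all 69 genes and was not called. Its intensities were 337, 1022 and 259 in Arid1a d/d uteri, against 167, 159 and 152 in Arid1a f/f uteri (2.81-fold, log2 fold change 1.49, SE 0.42, adjusted p = 0.0874). All Arid1a d/d arrays were above all Arid1a f/f arrays, and Arid1a d/d replicate 2 was far above the other 2. Without that array the value was smaller and passed the test (log2 fold change 0.89, adjusted p = 0.0227). Car12, a membrane-spanning enzyme, and the cytosolic Car13, both named after their values were seen, had groups that did not overlap and were not called. Car12 averaged 27.7 ± 2.77 in Arid1a d/d uteri and 20.2 ± 0.836 in Arid1a f/f uteri (SD, n = 3 each, log2 fold change 0.45, limma adjusted p = 0.0516), and its second probe set passed at 0.46 (adjusted p = 0.0426). Car13 averaged 3.91 ± 0.199 in Arid1a d/d uteri and 2.81 ± 0.522 in Arid1a f/f uteri (SD, n = 3 each, log2 fold change 0.49, limma adjusted p = 0.0896).

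Car3, abundant in fat and muscle, had 216, 590 and 336 in Arid1a d/d uteri, against 343, 152 and 211 in Arid1a f/f uteri (log2 fold change 0.65, SE 0.38, adjusted p = 0.421). It was highest in Arid1a d/d replicate 2 and lowest in Arid1a f/f replicate 2. Car13, Car1, Car3 and Car2 follow each other on chromosome 3, and their log2 fold changes ran from −0.03 for Car1 to 1.49 for Car2. Of the 6 fat cell markers measured, Adipoq, Cidec, Fabp4 and Retn were likewise highest in Arid1a d/d replicate 2, while Lep was highest in Arid1a d/d replicate 1 and Pck1 in Arid1a f/f replicate 2, where Car3 was lowest. Adipoq, which encodes adiponectin, had 20.3, 67.8 and 42.7 in Arid1a d/d uteri and 39.0, 9.52 and 19.9 in Arid1a f/f uteri, and Fabp4, a fatty acid binding protein, had 57.3, 136 and 82.9 in Arid1a d/d uteri and 68.4, 22.2 and 38.5 in Arid1a f/f uteri. The 6 fat cell markers summed to 96.2 to 248 in Arid1a d/d uteri and 52.8 to 136 in Arid1a f/f uteri, and none was called. Their part in the values of Car3 was not tested.

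**Figure D4:**
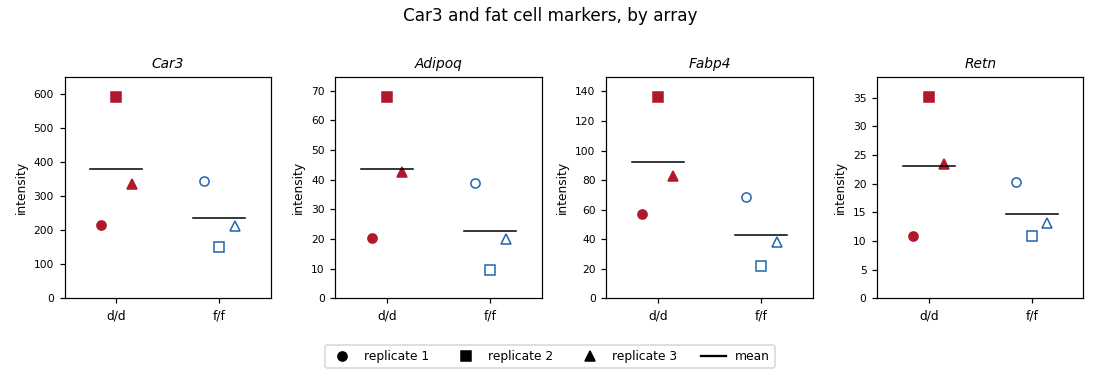
Intensity (vertical axis, linear, from 0) of Car3 and of the fat cell markers Adipoq, Fabp4 and Retn in each array, Arid1a d/d left and Arid1a f/f right, with symbols for replicates and a line for the mean. All 4 genes were highest in Arid1a d/d replicate 2 and lower in Arid1a f/f replicates 2 and 3 than in Arid1a f/f replicate 1.

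In several ion transport genes 1 array stood apart from the others of its genotype. Arid1a d/d replicate 2 was at least 1.5-fold above both other Arid1a d/d arrays in 5 genes (Car2, Car3, Cftr, Slc26a7 and St14) and at least 1.5-fold below both in 2 (Ano1 and Fxyd4). Arid1a d/d replicate 3 was that far above in 5 (Atp1b1, Car7, Fxyd4, Scnn1a and Slc9a5). By the same measure, Arid1a d/d replicate 1 stood apart in 2 genes, Arid1a f/f replicate 1 in 3, Arid1a f/f replicate 2 in 1 and Arid1a f/f replicate 3 in 0. The array that was high for Cftr, St14 and Car2 was also the one with the highest summed epithelial markers, and it was the highest of the 6 arrays in 11 of the 13 epithelial markers. Of these the highest log2 fold change was that of Elf3 (1.73), an epithelial transcription factor, with 18.0, 94.1 and 19.1 in Arid1a d/d uteri and 11.2, 10.03 and 7.86 in Arid1a f/f uteri. The claudins Cldn3 (log2 fold change −0.39) and Cldn4 (−0.16) were the exceptions, and both were highest in Arid1a f/f replicate 1. The part of the epithelial share in these values was not tested.

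**Figure D5:**
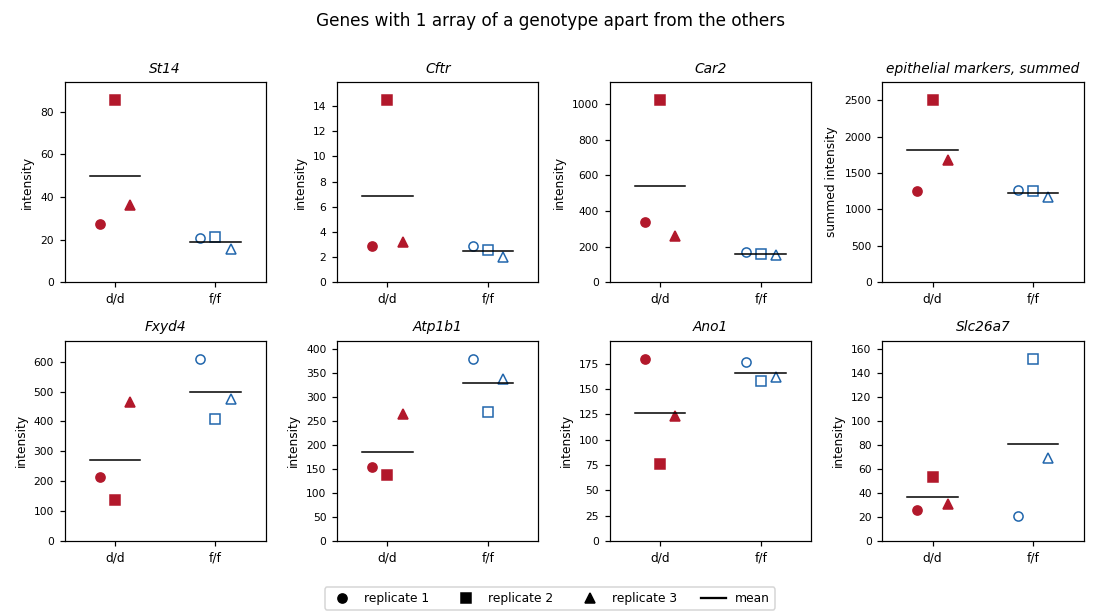
Intensity (vertical axes, linear, from 0) of 7 genes and the summed intensity of the 13 epithelial markers in each array, Arid1a d/d left and Arid1a f/f right, with symbols for replicates and a line for the mean. St14, Cftr, Car2 and the summed epithelial markers were highest in Arid1a d/d replicate 2, Fxyd4 and Atp1b1 had their highest Arid1a d/d value in replicate 3, and Ano1 its lowest in replicate 2.

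Further lists complete the transport machinery of an epithelium. Over all genes, 3.37% were called higher and 4.06% lower. Of 4 genes of the apical scaffold, which holds CFTR and sodium-proton exchangers to the cytoskeleton, 2 were called higher (median log2 fold change 0.19). Slc9a3r1, the scaffold protein NHERF1, had 60.7, 86.0 and 70.9 in Arid1a d/d uteri, against 44.9, 44.4 and 47.6 in Arid1a f/f uteri (log2 fold change 0.65, adjusted p = 0.0305). Ezr, which encodes ezrin, had 99.1, 133 and 122 in Arid1a d/d uteri, against 75.2, 86.0 and 62.6 in Arid1a f/f uteri (log2 fold change 0.67, adjusted p = 0.0446). Both had groups that did not overlap, and both were called in 1 of the 6 fits that left out an array, the one without Arid1a d/d replicate 1. The other 2 scaffold genes, named after their values were seen, went the other way and were not called. Slc9a3r2 had a log2 fold change of −0.40 (limma adjusted p = 0.110) and the dim Pdzk1 one of −0.26 (limma adjusted p = 0.242), each without overlap of the groups. Of 8 measured proton pump genes, 1 was called (median log2 fold change 0.00): Atp6v1a, the catalytic subunit of the vacuolar proton pump, had 94.4, 120 and 116 in Arid1a d/d uteri, against 68.7, 66.0 and 78.7 in Arid1a f/f uteri (log2 fold change 0.63, adjusted p = 0.0286). Among the fits that left out an array, Atp6v1a too was called only in the one without Arid1a d/d replicate 1. Atp12a, named after its values were seen, had the largest change of this list, was lower and was not called (log2 fold change −1.09, SE 0.31, limma adjusted p = 0.0879). It had 14.6, 5.46 and 7.64 in Arid1a d/d uteri, against 21.4, 15.95 and 17.1 in Arid1a f/f uteri. Of 10 potassium channel genes of epithelia, none was called by limma (median log2 fold change −0.07). At an unadjusted p under 0.05 limma passed 2 of them, both higher (11.4% of all genes passed as higher at that threshold). The smallest p was that of Kcnk1, a potassium leak channel, with 116, 187 and 138 in Arid1a d/d uteri and 97.5, 84.7 and 92.0 in Arid1a f/f uteri (log2 fold change 0.66, SE 0.17, adjusted p = 0.0618).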

How the data were processed

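RNA from uteri of Arid1a d/d and Arid1a f/f mice at 3.5 dpc was hybridised to Affymetrix Mouse Genome arrays, 3 per genotype. The authors summarised probe sets by RMA with global scaling (versions not given in the sources used here), and the deposited values are linear intensities, from 1.29 to 4479. The trimmed mean of the table was not at the target the methods name, and how it was scaled further was not stated. Array medians lay between 3.05 and 3.17. Precision is limited by having 3 arrays per genotype. Of 45037 probe sets, 34945 name 1 gene, 932 several and 9160 none in the annotation used here; a probe set naming several genes was left out. Log2 values of all probe sets were fitted with limma 3.58.1 (lmFit, eBayes, R 4.3.3, two-sided, p-values adjusted by Benjamini-Hochberg across the whole table, checked on simulated data), with no covariates. Named were called genes, those with a log2 fold change of 1 or more in size, the 2 brightest of each role, and the ENaC and chloride channel genes; exceptions are marked. Other lists gave up to 3 called genes or the one of smallest p. The members and lists were chosen with earlier results of these data known. Alternatives covered the replicate block, scaling, dim probe sets, variance model, the methods' t-test, the value added before log2, the probe set rule, the threshold and each array left out. Sequences are from RefSeq (GRCm38.p6). All 69 symbols matched the gene table by Entrez ID. For 13 genes the brightest probe set can detect several transcripts.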

Additional observations from a re-analysis of the deposited data

How the results depend on the processing

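The counts of 3 ion transport genes higher and 6 lower were 4 and 6 with the replicate number as a block in the limma design. Deviations of same-numbered arrays from their genotype mean correlated at −0.00, 0.05 and 0.14. Arrays with different numbers were not compared in this way, so these values cannot decide whether the numbers pair the arrays. Under the block St14 and Atp1b1 were gained and Fxyd5 was lost. The counts lay between 3 and 4 higher and between 4 and 7 lower under quantile normalization, median centring, dim probe sets left out, the trend and robust options, 4 added before log2, the mean of the probe sets of a gene, and probe sets for several transcripts left out. The methods' t-test passed 0 higher and 0 lower after Benjamini-Hochberg adjustment, and 6 and 9 at an unadjusted p under 0.05. At an adjusted p under 0.10 limma called 7 higher and 8 lower, and under 0.01 it called 0 higher and 3 lower (Atp1b2, Fxyd6 and Slc12a7). The shares of all genes passing the t-test, or passing limma at 0.10 or 0.01, were not counted. These counts therefore have no background beside them and cannot show whether there is an excess. With 1 array left out, 1 to 4 genes were higher and 3 to 6 were lower: 1 higher (Prss8) without Arid1a f/f replicate 2 or replicate 3, and 3 lower (Atp1b2, Fxyd6 and Slc12a7) without any one Arid1a f/f array. Car11 also lost its call under quantile normalization, median centring, the trend and robust options and 4 added before log2, and Scnn1b, Car4 and Tmprss4 under the last of these. Ezr lost it under quantile normalization, 4 added before log2 and the mean of its probe sets, and Slc9a3r1 when probe sets for several transcripts were left out. Calls were gained for Fxyd1 (quantile normalization, dim probe sets left out, trend and robust options, mean of the probe sets), Slc12a2 (trend and robust options, 4 added, mean of the probe sets), Car12 (dim probe sets left out, 4 added), Clcn5 (replicate block, quantile normalization, trend and robust options, probe sets for several transcripts left out) and Kcnk1 (trend and robust options). The median log2 fold change over the genes stayed between −0.10 and −0.02. Among single genes the direction turned for Slc26a2 as the mean of its probe sets (−0.10) and for Atp1b1 when probe sets for several transcripts were left out (0.079, its dimmest probe set), where another probe set then stood for the gene. With 1 array left out it turned for genes with values near 0: Atp1b3 (−0.24 to 0.077), Scnn1a (−0.40 to 0.014), Scnn1g (−0.22 to 0.080), Slc26a2 (−0.012 to 0.089), Slc4a2 (−0.092 to 0.37) and Slc9a5 (−0.32 to 0.14). With 3 arrays a genotype and 25 of 69 genes dim in both, changes in dim or variable genes could be missed, and a gene that was not called is not shown to be unchanged.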
